A study of Homo sapiens with 2 samples.

Results

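The transforming growth factor beta (TGF-beta) and bone morphogenetic protein (BMP) pathways were read in Ca9-22, a human cell line that was established from a squamous carcinoma of the gingiva. Ca9-22-PTHLH cells had been infected with a lentiviral vector that carries PTHLH, the gene of parathyroid hormone-like hormone, and Ca9-22-EV cells with the empty vector. Both were enriched by selection with blasticidin, and total RNA of 1 culture of each kind was hybridised to 1 Affymetrix array. Which promoter drives PTHLH is not stated in the sources used here. The genes were taken from a list of 46 symbols made up of ligands, ligand traps, receptors, SMADs, their regulators and known targets. Of these, 45 had at least 1 probe set that the annotation gives to that gene alone, out of 19775 genes on the array, and BMPR1A, a type I BMP receptor, is not analysed here. They were assigned to a TGF-beta/activin arm of 20 genes, a BMP arm of 16 and 9 genes that serve both arms or neither. ACVR2A, ACVR2B, TGFBR3 and FST were placed in the TGF-beta/activin arm, although their products also bind BMPs.

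Ligands of this family bind pairs of type II and type I receptor kinases at the cell surface. TGF-beta and activin receptors phosphorylate SMAD2 and SMAD3, BMP receptors phosphorylate SMAD1 and SMAD5, and both kinds of SMAD join SMAD4 to act on genes in the nucleus. In squamous epithelium TGF-beta is best known for holding back growth, and the ID genes are classic targets of BMP, whose products block helix-loop-helix transcription factors.

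A value here is the intensity of a probe set (a handful of short DNA probes that together read a transcript), on a linear scale in arbitrary units. Each gene was given by its brightest probe set, and a difference is the log2 intensity with PTHLH minus that with the empty vector. With 1 array per condition there is no spread between cultures, no test was run, and a difference of at least 1.5-fold (0.585 on the log2 scale) is a size and not a significance. The only error that can be had is between probe sets. Over 10523 genes with more than 1, a single log2 difference had an SD of 0.227 by comparing the 2 brightest, which covers probes and not cultures. A lower intensity in a culture cannot be told apart between fewer cells that express a gene and less RNA per cell. The array medians were 19.4 with PTHLH and 19.5 with the empty vector, and probe sets under them are called dim. The 5 squamous markers measured (KRT5, KRT14, CDH1, DSG3 and EPCAM) were all above both medians, at 447 to 10228 with PTHLH and 390 to 7823 with the empty vector. Of 7 fibroblast markers, COL1A1 was bright, at 1652 with PTHLH and 2437 with the empty vector, and the other 6 lay between 4.28 and 34.3 with PTHLH and between 3.58 and 32.1 with the empty vector. The fibroblast list summed to 1766 with PTHLH and 2551 with the empty vector, and COL1A1 made up most of both sums. COL1A2 and COL3A1 were dim on both arrays. Of the endothelial markers VWF had 128 with PTHLH and 129 with the empty vector, PECAM1 39.9 with PTHLH and 40.4 with the empty vector, and CDH5 8.86 on each, and the leukocyte markers PTPRC and CD3E were at 7.84 and 19.4 with PTHLH and at 7.05 and 20.2 with the empty vector.

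The ID genes carried the clearest contrast within the BMP arm, so the DNA upstream of 3 of them is shown first. The lines below give the 250 bases before the annotated transcription start in RefSeq on GRCh38.p14, read 5′ to 3′ along the gene. They cover the ID genes at least 1.5-fold higher with PTHLH (ID2 and ID3) and ID1, which was within 1.5-fold with a log2 difference below 0. Capitals mark every match, on either strand, to CCAAT (the CCAAT box), TATAA (the core of a TATA box), GGCGCC and CAGAC (short letters that SMADs bind) and TGACG (the core of a cyclic AMP response element).
ID1, chr20:31605039-31605288, + strand: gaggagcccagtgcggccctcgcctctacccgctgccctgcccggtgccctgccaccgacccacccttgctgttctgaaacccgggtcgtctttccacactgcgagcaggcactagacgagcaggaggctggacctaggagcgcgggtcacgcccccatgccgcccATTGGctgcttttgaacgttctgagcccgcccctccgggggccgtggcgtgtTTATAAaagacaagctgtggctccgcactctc
ID2, chr2:8681806-8682055, + strand: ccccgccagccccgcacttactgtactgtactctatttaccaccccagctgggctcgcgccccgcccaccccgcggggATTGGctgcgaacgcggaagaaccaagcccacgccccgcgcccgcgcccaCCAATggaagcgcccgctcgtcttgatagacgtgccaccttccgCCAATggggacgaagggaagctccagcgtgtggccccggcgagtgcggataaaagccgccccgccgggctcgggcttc
ID3, chr1:23559502-23559751, - strand: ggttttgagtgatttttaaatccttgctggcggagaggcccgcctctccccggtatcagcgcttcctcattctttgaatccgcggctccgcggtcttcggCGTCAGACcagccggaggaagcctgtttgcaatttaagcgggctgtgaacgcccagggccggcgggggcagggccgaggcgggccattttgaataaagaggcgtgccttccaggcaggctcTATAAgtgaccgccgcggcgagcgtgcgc
The ID1 window held 1 CCAAT match and TATAA matches on both strands that overlap, which start 32 and 31 bases before the transcription start. The ID2 window held 3 CCAAT matches, 78, 122 and 172 bases before the start, and none to TATAA. In ID3 there was 1 TATAA match 29 bases before the start, and a TGACG and a CAGAC match that share 2 letters, 150 and 147 bases before it. GGCGCC was in none of these windows, and it is in 16.4% of the 35116 promoter windows of that length in the table, against 32.0% for CCAAT, 18.9% for TATAA, 38.0% for CAGAC and 21.2% for TGACG. These matches describe letters only, and neither DNA further upstream nor inexact matches were searched. Of the 46 listed genes 41 had a promoter in the table, with 75 windows, of which 36.0% held CCAAT, 17.3% TATAA, 25.3% GGCGCC, 40% CAGAC and 14.7% TGACG.

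A ligand, a trap, a receptor and a pair of target genes were higher with PTHLH, a coreceptor, a divergent ligand, a pseudoreceptor and a latent binding protein were lower, and the SMADs stayed within 1.5-fold. Over all members, 5 of 45 (11.1%) had at least 1.5-fold more signal with PTHLH (ID2, FST, BMP2, TGFBR2 and ID3) against 1.97% of all genes, and 4 (8.89%) were at least 1.5-fold lower (TGFBR3, GDF15, BAMBI and LTBP1) against 3.52% of all genes, so 9 members passed in either direction against a background of 5.49%. Of the 1086 genes past 1.5-fold, 992 were above the median on at least 1 array. Among genes above the median on at least 1 array the shares were 2.57% higher and 4.74% lower, and of the 40 members in that class 5 (12.5%) were higher and 4 (10%) lower, against 7.31% of such genes in either direction. At 2-fold, 1 member was higher (ID2) and 2 were lower (TGFBR3 and GDF15), where all genes had 0.182% higher, 0.733% lower and 0.915% in either direction, and genes above the median on at least 1 array had 0.265%, 1.01% and 1.28%. These shares stand above those of all genes, but they describe 1 pair of cultures and were not tested. The study's own pathway table, picked on the same arrays, names TGFBR2, TGFBR3, BMP2 and BMP7, so these genes are no independent support. Of the 7 members past 1.5-fold with more than 1 probe set, 4 (ID2, FST, BMP2 and TGFBR3) had another one past 1.5-fold in the same direction.

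ID2 had an intensity of 165 on the PTHLH array and 76.4 on the empty vector array, a log2 difference of 1.11 (2.16-fold) and the largest positive difference of all members. Its second probe set had 37.7 with PTHLH and 22.2 with the empty vector (0.76). The names of both probe sets carry a suffix, s or x, which marks probes that can bind more than 1 transcript. ID2 was 21st from the top by log2 difference among the 13564 genes above the median on at least 1 array. ID3 had 2153 with PTHLH and 1345 with the empty vector, a log2 difference of 0.68, from its only probe set, which carries the suffix s. ID1 had the opposite sign, with 3688 on the PTHLH array and 5008 on the empty vector array (-0.44, within 1.5-fold), also from 1 probe set with the suffix s. ID4 was dim in all 5 of its probe sets, the brightest at 15.3 with PTHLH and 17.0 with the empty vector. So of the 3 ID genes above both medians, ID2 and ID3 were at least 1.5-fold higher with PTHLH, and ID1 had a log2 difference below 0 that did not pass 1.5-fold.

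Among the BMP ligands, BMP2, an inducer of bone and of many epithelial organs, was higher. Its brightest probe set had 166 on the PTHLH array and 89.8 on the empty vector array (1.85-fold, a log2 difference of 0.89), and its second had 145 with PTHLH and 70.4 with the empty vector (1.05). The probe sets of BMP2 thus gave the same answer and lay above both medians. BMP7, a ligand of kidney and skeleton development, had 161 with PTHLH and 144 with the empty vector by the brightest probe set (0.16). Its second had 97.4 with PTHLH and 59.3 with the empty vector (0.72), and the other 2 had log2 differences of 0.49 and 0.13, so all 4 were above 0 but only 1 passed 1.5-fold. BMP4 had 43.3 with PTHLH and 47.6 with the empty vector (-0.14), and BMP6 lay at the array medians, at 19.5 with PTHLH and 18.2 with the empty vector (0.10). The traps that hold BMPs away from their receptors were dim, NOG at 4.23 with PTHLH and 4.68 with the empty vector, and GREM1 at 3.76 with PTHLH and 4.38 with the empty vector.

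BMP receptors and SMADs stayed within 1.5-fold. ACVR1, a type I receptor, had 234 with PTHLH and 282 with the empty vector (-0.27), the type II receptor BMPR2 had 111 with PTHLH and 93.0 with the empty vector (0.26), and BMPR1B was dim at 7.93 with PTHLH and 8.21 with the empty vector. The 6 probe sets of BMPR2 ran from -0.10 to 0.45. SMAD1 and SMAD5, which carry the same signal, differed in sign. SMAD1 had 201 with PTHLH and 171 with the empty vector (0.23, and 0.42 by its second probe set). SMAD5 had 222 with PTHLH and 287 with the empty vector (-0.37), and all 5 of its probe sets were below 0. SMAD6, an inhibitor of BMP receptors, had 106 with PTHLH and 105 with the empty vector by the brightest probe set (0.02), while its 2 dimmest, at 15.4 and 14.8 with PTHLH and 10.2 and 9.36 with the empty vector, had 0.59 and 0.66.

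**Figure D1:**
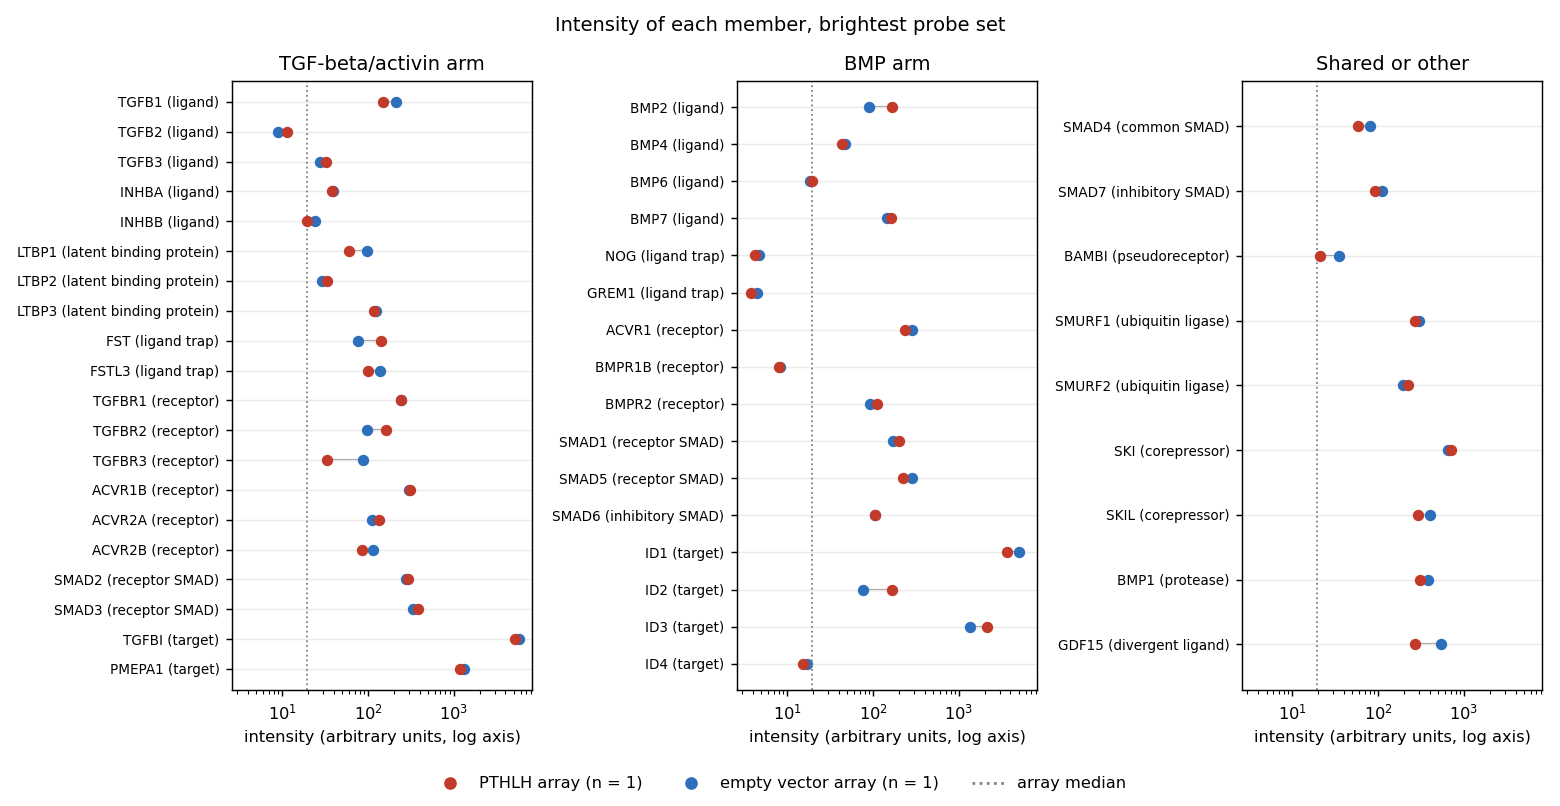
Intensity of the brightest probe set of each of 45 members on a log axis, in arbitrary units, with the PTHLH array in red and the empty vector array in blue (1 array each) and the PTHLH array median of 19.4 as a dotted line. ID2, BMP2, FST and TGFBR2 have the red point clearly to the right, TGFBR3 and GDF15 clearly to the left, and NOG, GREM1, BMPR1B, ID4 and TGFB2 lie under the median.

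In the TGF-beta/activin arm the largest differences were in proteins that bind the ligands. TGFBR3, betaglycan, a coreceptor that presents TGF-beta to the signalling receptors, had 33.0 on the PTHLH array and 88.0 on the empty vector array, a log2 difference of -1.41. Its second probe set had 23.3 with PTHLH and 67.7 with the empty vector (-1.54). Both were above the median on both arrays, and TGFBR3 was 31st from the bottom of the 13564 genes above the median on at least 1 array. FST, follistatin, a secreted trap of activins, had 142 with PTHLH and 75.8 with the empty vector (1.87-fold, a log2 difference of 0.90). Its second probe set had 50.6 with PTHLH and 15.3 with the empty vector (1.73), the empty vector value being under the array median. The third was dim on both arrays, at 13.6 with PTHLH and 8.45 with the empty vector (0.69), so all 3 passed 1.5-fold in one direction. FSTL3, a relative of follistatin with the same role, had 99.9 with PTHLH and 136 with the empty vector (-0.45), the opposite sign.

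TGFBR2, the type II receptor that binds TGF-beta itself, had 162 with PTHLH and 97.0 with the empty vector (1.67-fold, a log2 difference of 0.74) by its brightest probe set. Its other probe set was dim, at 13.5 with PTHLH and 12.6 with the empty vector, with a log2 difference of 0.10. Its type I partner TGFBR1 was level at 239.8 with PTHLH and 240.2 with the empty vector (-0.0024). The activin receptors were within 1.5-fold, ACVR1B at 313 with PTHLH and 302 with the empty vector (0.05), ACVR2A at 133 with PTHLH and 111 with the empty vector (0.26) and ACVR2B at 85.9 with PTHLH and 113 with the empty vector (-0.40). In ACVR2A and ACVR2B the next brightest probe set, also brighter than the array medians, had the opposite sign (-0.55 and 0.19), so no direction can be read for either.

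TGFB1, the main TGF-beta of epithelium, had 150 with PTHLH and 212 with the empty vector (-0.50), just short of 1.5-fold, and its second probe set, near the medians at 25.3 with PTHLH and 21.7 with the empty vector, had 0.22. TGFB3 had 32.6 with PTHLH and 27.4 with the empty vector (0.26), TGFB2 was dim in all 5 probe sets (0.34 by the brightest), and the activin subunits INHBA (-0.02) and INHBB (-0.32) were within 1.5-fold. LTBP1, which ties latent TGF-beta to the matrix, had 59.3 with PTHLH and 96.4 with the empty vector (-0.70). Its second probe set held exactly the same value on both arrays, 32.4. Such identical values occurred in 6 of the 134 probe sets of the members (4.48%) and in 6.16% of all probe sets, and without them the same 9 members passed 1.5-fold. LTBP2 (0.17, but -0.14 by its other probe set) and LTBP3 (-0.08, with -0.26 and 0.07 by its others) were close to level.

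SMAD2 and SMAD3 and the target genes TGFBI and PMEPA1 were within 1.5-fold. SMAD2 had 290 with PTHLH and 275 with the empty vector (0.08) and SMAD3 had 380 with PTHLH and 331 with the empty vector (0.20). TGFBI, a matrix protein named for its induction by TGF-beta, had 5188 with PTHLH and 5716 with the empty vector (-0.14). PMEPA1, another induced gene that limits SMAD2 and SMAD3, had 1192 with PTHLH and 1305 with the empty vector (-0.13), and its 3 probe sets lay between -0.21 and -0.13. None of these 4 genes passed 1.5-fold in any of its probe sets.

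Of the 9 genes shared by both arms or outside them, 2 were at least 1.5-fold lower with PTHLH (against 3.52% of all genes) and none was higher (against 1.97%), with a median log2 difference of -0.32. GDF15, a distant member of the ligand family that is released under stress, had 266 with PTHLH and 548 with the empty vector (-1.04). That probe set carries the suffix x, and the other 2 were dim, at -0.20 and -0.39. BAMBI, a receptor without a kinase that blocks TGF-beta and BMP signals, had 21.0 with PTHLH and 34.9 with the empty vector (-0.74), close to the array median and from its only probe set. SMAD4, the common partner of both arms, had 57.8 with PTHLH and 80.8 with the empty vector (-0.48), but its second probe set above both medians had 0.06. SKIL, a repressor of SMAD activity, had 292 with PTHLH and 407 with the empty vector (-0.48), and all 5 of its probe sets were below 0. SKI, its relative, had 706 with PTHLH and 651 with the empty vector (0.12), with one probe set near the medians at 0.59. SMAD7, the inhibitor of both arms, had 92.3 with PTHLH and 110 with the empty vector (-0.26). The ubiquitin ligases SMURF1 (-0.16) and SMURF2 (0.17), which tag SMADs and receptors for removal, were within 1.5-fold. Their other probe sets lay between -0.16 and 0.28 (SMURF1) and between -0.11 and 0.04 (SMURF2). BMP1, a protease that trims matrix proteins in spite of its name, was also within 1.5-fold (-0.32, while its other 6 probe sets lay between 0.05 and 0.30).

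**Figure D2:**
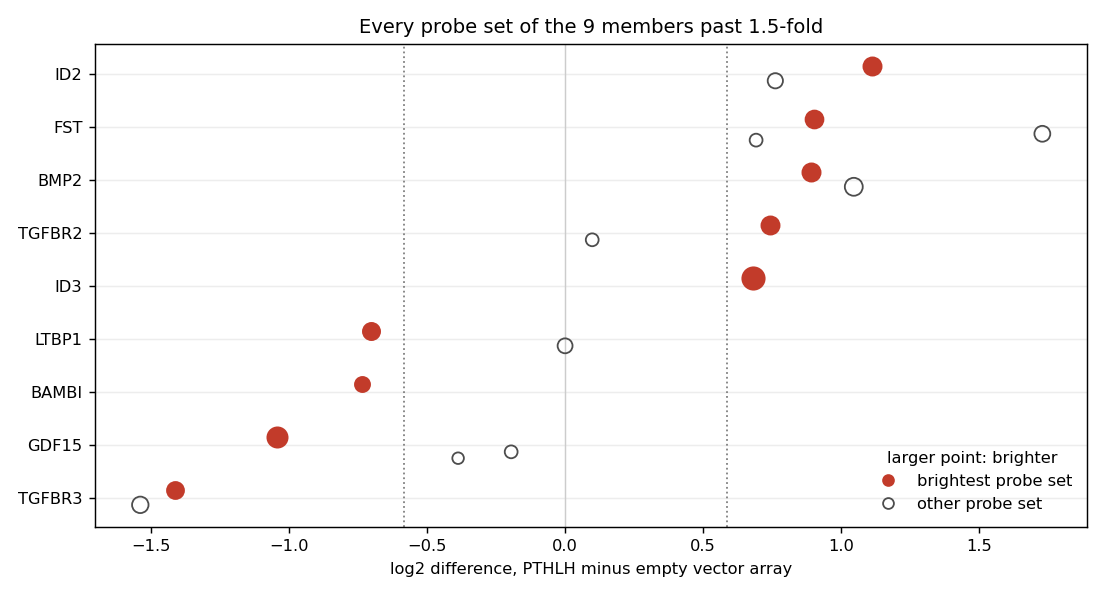
The horizontal axis is the log2 difference (PTHLH minus empty vector) of every probe set of the 9 members past 1.5-fold, with the brightest probe set filled in red, the others open, larger points for brighter probe sets and dotted lines at 1.5-fold. The probe sets of ID2, FST, BMP2 and TGFBR3 all lie outside the lines on one side, whereas those of TGFBR2, LTBP1 and GDF15 do not, and ID3 and BAMBI have 1 each.

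By the brightest probe set, the median log2 difference was -0.01 in the TGF-beta/activin arm, with 2 of 20 genes higher and 2 lower, and -0.01 in the BMP arm, with 3 of 16 higher and none lower, against 0 over all genes (background shares 1.97% higher, 3.52% lower). Some other choices of probe set set the arms apart. The TGF-beta/activin median minus the BMP median was -0.15 with the median over probe sets, -0.13 with the second brightest and -0.33 with the largest difference. The BMP median was then 0.14, 0.14 and 0.17. Without x or s probe sets the difference between arms was -0.03, with a floor at percentile 40 it was -0.02, and with quantile normalization 0.005. Above the median on at least 1 array, the medians were -0.02 over 19 genes of the TGF-beta/activin arm and 0.13 over 12 genes of the BMP arm, 0.16 apart. By role, the ligand traps and receptors of the TGF-beta/activin arm held both directions (FST against FSTL3, TGFBR2 against TGFBR3). In the BMP arm as assigned here, all genes past 1.5-fold, a ligand and 2 targets, were higher with PTHLH. Whether the arms differ was not tested, as genes are not replicates.

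**Figure D3:**
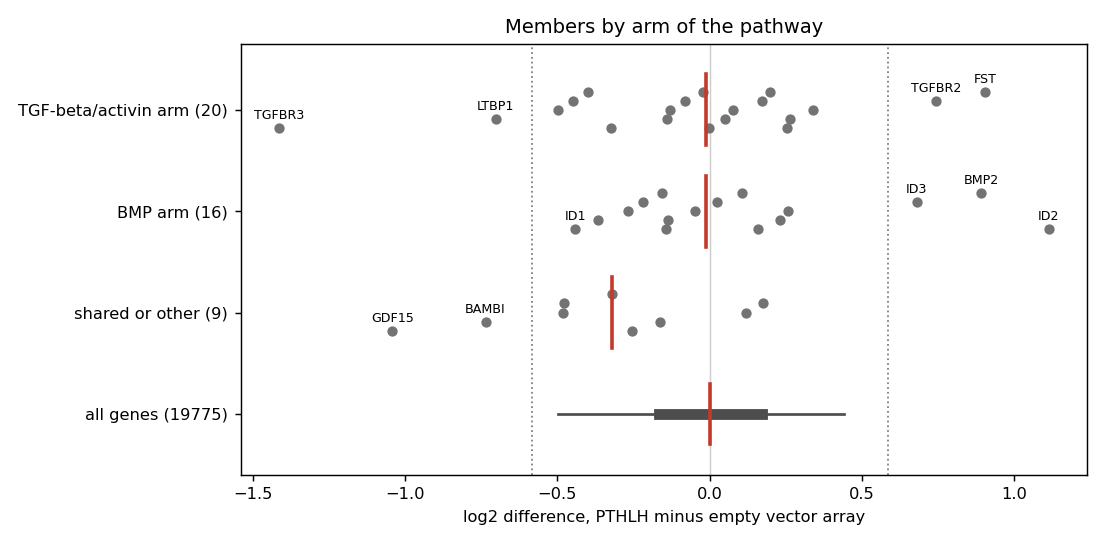
The horizontal axis is the log2 difference (PTHLH minus empty vector) of each member (grey points) by arm, with the arm's median as a red line, dotted lines at 1.5-fold, and for all 19775 genes a thin bar from percentile 5 to 95 and a thick bar from 25 to 75. The medians of the TGF-beta/activin and BMP arms both lie at -0.01, with BMP2, ID2 and ID3 alone past 1.5-fold in the BMP arm.

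Other genes of the pathway came from lists of 83 further symbols. Of 77 measured, 2 were at least 1.5-fold higher (1.97% of all genes were) and 6 at least 1.5-fold lower (3.52% of all genes were), with a median log2 difference of -0.07. HEY1, a repressor that BMP and Notch signals induce, had 162 with PTHLH and 76.5 with the empty vector (1.08), and 0.98 by its other probe set. MSX2, a homeobox gene that BMPs induce in skull and tooth, had 147 with PTHLH and 240 with the empty vector (-0.71), and its other probe sets had -0.72 and -0.14. The 8 further BMP targets thus held 1 gene in each direction, with a median of 0.07, and MSX1 (-0.27) and RUNX2 (0.33) were within 1.5-fold.

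Of 17 TGF-beta targets measured, 4 were at least 1.5-fold lower with PTHLH, none was higher, and the median was -0.30, the lowest of the 5 lists. They were the smooth muscle actin ACTA2 (74.3 with PTHLH and 169 with the empty vector, -1.19, but 0.07 and 0.20 by its other probe sets), the angiogenic factor VEGFA (270 with PTHLH and 478 with the empty vector, -0.82, but -0.47 to -0.20 by its other 3 probe sets), the AP-1 subunit JUNB (452 with PTHLH and 773 with the empty vector, -0.77) and the cell cycle inhibitor CDKN1A (1339 with PTHLH and 2065 with the empty vector, -0.62). JUNB and CDKN1A had no other probe set, so none of the 4 had another one past 1.5-fold. The share of 4 in 17 compares with 3.52% of all genes, but the list was chosen with earlier results of these data known. The study's own pathway table, picked on the same arrays, names all 4, so this share is no independent support. ACTA2, VEGFA, JUNB and CDKN1A also answer to many signals besides TGF-beta. CDKN2B, a CDK inhibitor that TGF-beta induces in keratinocytes, had 93.3 with PTHLH and 139 with the empty vector (-0.58), just short of 1.5-fold, with 0.18 by its other probe set. COL1A1, also a marker of fibroblasts, had -0.56, with its other 4 probe sets between -0.66 and 0, and the part of such cells in the result was not tested.

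Of 23 further ligands and antagonists, LEFTY1, an inhibitor of Nodal, was lower, with 27.0 with PTHLH and 50.0 with the empty vector (-0.89), from 1 probe set. INHA (-0.37), GDF11 (-0.33) and LTBP4 (-0.42) were within 1.5-fold. The other probe sets of GDF11, and those of LTBP4, lay between -0.09 and 0.27. Of 23 receptors, SMAD partners and modifiers, CREBBP, a histone acetyltransferase that SMADs recruit, was higher (641 with PTHLH and 392 with the empty vector, 0.71), its other probe sets lay between 0.08 and 0.47, and its relative EP300 had 169 with PTHLH and 116 with the empty vector (0.54). ZFYVE9, which brings SMAD2 and SMAD3 to the receptor, had 0.39, but -0.15 by its other probe set, and the corepressor TGIF1 had -0.33. The 6 activators of latent TGF-beta measured, of 7 listed, were within 1.5-fold, with ITGAV at -0.12, ITGB8 at 0.08, THBS1 at -0.31 and MMP14 at 0.05. Other probe sets lay between -0.19 and 0.47 for ITGB8 and between -0.22 and 0.49 for THBS1. ITGB6, the activator left out, had no probe set named here, although the study's own pathway table names it.

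**Figure D4:**
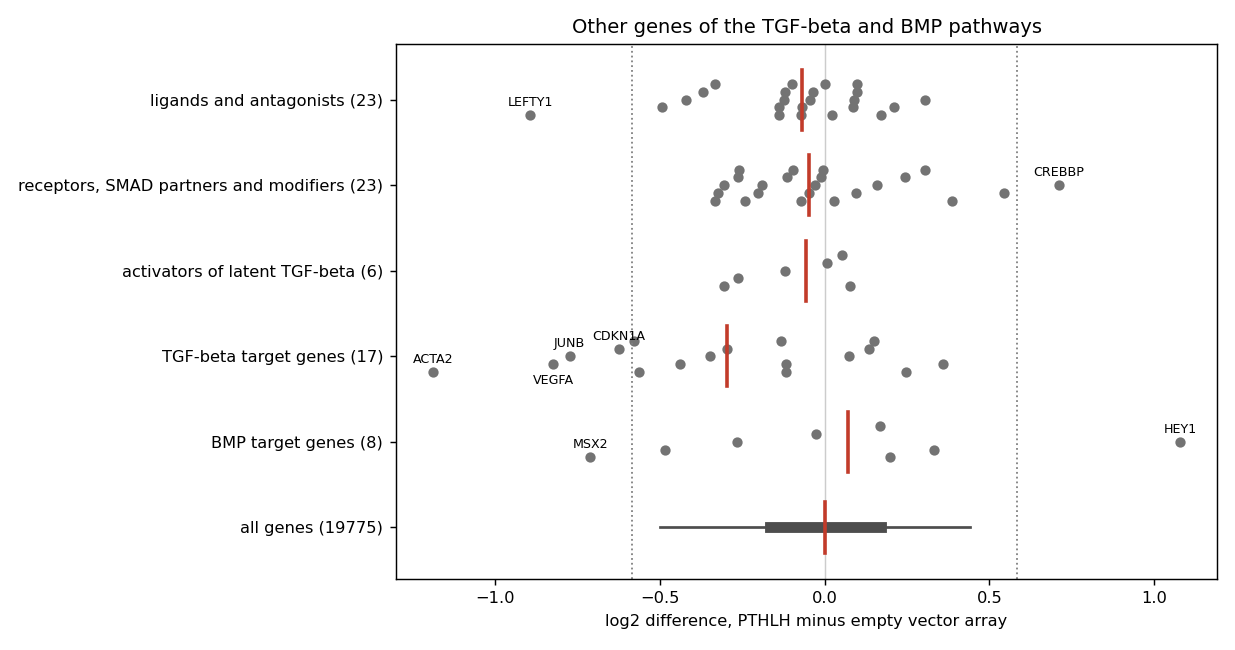
The horizontal axis is the log2 difference (PTHLH minus empty vector) of 77 other pathway genes (grey points) in 5 lists, with each list's median as a red line, dotted lines at 1.5-fold and all 19775 genes as in the plot by arm. The TGF-beta targets have the lowest median, -0.30, with ACTA2, VEGFA, JUNB and CDKN1A past 1.5-fold, and HEY1 stands alone on the right of the BMP targets at 1.08.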

How the data were processed

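Ca9-22-PTHLH and Ca9-22-EV cells gave 1 array each, made from biotin-labelled total RNA on an Affymetrix platform. The authors deposited 1 intensity per probe set on a linear scale, 54675 per array. How background, normalization, probe summary and scanning were handled is not given in the sources used here. Conditions were taken from the titles and characteristics. A conflicting description field (another cell line, another gene) was set aside.

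Log2 intensities were subtracted, PTHLH minus empty vector. Probe sets were named through the platform annotation, with symbols updated by gene identifier. Of these, 41097 name 1 gene and were used, 1801 name several and 11777 are unnamed here. A gene was represented by its brightest probe set (mean log2 over both arrays). A difference of at least 1.5-fold, the study's threshold, was counted. No test was possible with 1 array per condition, and precision is limited by their number. The procedure was tested on simulated data. Promoters and motif shares came from RefSeq (GRCh38.p14).

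The members and lists were chosen with earlier results of these data known. All measured members are named, and of each further list the 4 genes with the largest absolute differences among those brighter than a median. CDKN2B and COL1A1 were added after their values were seen. Alternatives were another normalization or centring, other choices of probe set, a filter or floor on dim values, no x or s probe sets, no identical values, a 2-fold threshold and a narrower TGF-beta/activin arm. Python 3.11.15, pandas 2.3.3, numpy 2.4.6 and matplotlib 3.10.9 were used.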

Additional observations from a re-analysis of the deposited data

How the results depend on the processing

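No paired analysis was possible because each condition has 1 array. Quantile normalization, centring on the brighter probe sets (a shift of 0) and leaving out identical probe sets, the last chosen after seeing the data, left the same 9 members past 1.5-fold. Leaving ACVR2A, ACVR2B, TGFBR3 and FST out of the TGF-beta/activin arm left its median at -0.01. ACVR2A and FST lie above that median and ACVR2B and TGFBR3 below it, so it could not move and nothing follows from this alternative. The choice of probe set mattered more. With the median over probe sets, 4 members were higher and 2 lower (LTBP1, GDF15 and TGFBR2 lost), the member median was -0.0024, the BMP median 0.14, the TGF-beta/activin median lay 0.15 below it (-0.15), 248 genes were higher and 444 lower, and 1 further pathway gene was higher. With the largest difference, 8 members were higher (BMP7, SMAD6 and SKI added), the medians were -0.14 over members, -0.16 and 0.17 in the TGF-beta/activin and BMP arms (a difference of -0.33), 689 genes were higher and 10 further pathway genes were lower. With the second brightest probe set, which 35 members have, 4 members were higher and 1 lower, the medians were 0.039 over members and 0.14 in the BMP arm (a difference between arms of -0.13), 228 genes were higher and 253 lower, and further pathway genes gave 1 and 3. Keeping brighter probe sets gave a BMP median of 0.13 and a difference between arms of -0.16, and a floor at percentile 40 gave a member median of -0.0029. Without suffix x or s, 2 members were lower, SMAD6 was added to the higher ones, GDF15 had -0.39, LTBP1, ID2 and ID3 had no probe set left, and 3 further pathway genes were lower. At 2-fold, 1 member was higher and 2 lower, against 36 and 145 of all genes and 1 and 1 of the further genes. No member past 1.5-fold changed sign under these alternatives, and LTBP1 had 0 by its second probe set. Over single members 338 of 384 values moved by less than 0.227 on the log2 scale. Many of these could not move, as the centring shift was 0 and a member with 1 probe set has no other to choose. The count is therefore no measure of how stable the differences are. With 1 array per condition, no difference here can be set against the spread between cultures.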
